A study of Mus musculus with 11 samples.

Results

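Mouse embryonic stem (ES) cells of the library labelled JupLow were divided by how much of their messenger RNA came from genes of the naive pluripotent state. A cell barcode was kept when it carried at least 1000 unique molecular identifiers (UMIs, each the trace of 1 captured transcript) and at most 0.9 detected genes per UMI. The UMIs of 15 naive genes were summed in each cell: Nanog, Klf2, Klf4, Klf5, Esrrb, Tfcp2l1, Tbx3, Zfp42, Dppa3, Prdm14, Nr0b1, Fgf4, Tcl1, Nr5a2 and Gbx2. Cells with 1.5 or more of these UMIs per 1000 were called naive-rich, and cells with 0 were called naive-poor. The rule gave 234 naive-rich and 406 naive-poor cells, together 640 of the 1200 kept cells of the library and of 7079 kept cells in the 5 single-cell libraries of the series.

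The study cultured ES cells in soft agarose microgels or on plastic and followed plakoglobin, the junction protein encoded by Jup. The library labelled JupLow held cells of a line with low plakoglobin overexpression driven by a CAG promoter, grown in serum/LIF on tissue-culture plastic. The other 4 single-cell libraries were a line with high plakoglobin overexpression in the same culture (labelled JupHigh), and 3 cultures of wild-type E14 cells: in 2i/LIF on plastic, in agarose microgels with serum/LIF, and on plastic with serum/LIF. Each condition is 1 library made with inDrop, a droplet method for polyadenylated RNA, and the parent line of the plakoglobin lines is not named in the labels. The 6 bulk libraries of the series were not used here. With 1 library per condition, cells of a library are not replicates, so values within the library labelled JupLow are given with exact 95% intervals that cover counting error only.

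Naive pluripotency is the state of the epiblast before implantation, and mouse ES cells hold it uniformly when inhibitors of MEK and GSK3 (2i) are combined with the cytokine LIF. In serum and LIF the cells fluctuate: transcription factors of the naive network such as Nanog, Zfp42 (REX1), Esrrb and Klf4 are high in some cells and low in others, while the core factors Pou5f1 (OCT4) and Sox2 are kept in both. Cells that leave the naive state pass through a formative state marked by Pou3f1 and Otx2. Flattened, spread cells build actin stress fibres, and the keratins Krt8 and Krt18 form filaments of simple epithelia.

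Naive-rich cells made up 19.5% of the kept cells (exact binomial interval 17.3% to 21.9%), naive-poor cells 33.8% (31.2% to 36.6%), and 560 cells lay between the limits. A class made from a per-cell sum is a range and not a cell type. The 50 cells just under the upper limit had 1.22 to 1.497 naive UMIs per 1000 and Tdh at 518 CPM (UMIs of a gene scaled to a total of 1000000), and the 50 just over it had 1.51 to 1.85 and Tdh at 633 CPM. A count of 0 also depends on depth: the median cell had 2430 UMIs among naive-rich and 1759.5 among naive-poor cells. When every cell was thinned to 1000 UMIs before the choice, 53.3% were naive-poor and 21.2% naive-rich. Among cells with 2000 or more UMIs, 23.6% were naive-poor. For the gene ratios below each naive-rich cell was paired with a naive-poor cell within 10% of its UMIs, which left 228 pairs with 554645 and 529168 UMIs and median depths of 2384.5 and 2255.5.

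The genes of the rule describe the choice and support nothing. In the 228 matched naive-rich cells Zfp42 had 919 CPM (508 UMIs), Klf2 698 CPM (386 UMIs), Nanog 286 CPM (158 UMIs), Esrrb 282 CPM (156 UMIs) and Klf4 188 CPM (104 UMIs), against 0 by definition in naive-poor cells. Prdm14 had 4 UMIs in the matched naive-rich cells and 1.74 CPM over all kept cells, so it took almost no part in the choice. In the cells between the limits Zfp42 stood at 106 CPM and Nanog at 63.6 CPM.

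The groups differed in the share of UMIs on mitochondrial-encoded genes, counted together with 16 near-identical nuclear copies. That share had a median of 10.003% in naive-rich, 9.87% in intermediate and 39.0% in naive-poor cells. Barcodes at 20% or more, called mitochondrial-rich here, made up 43 of 234 naive-rich cells (18.4%, exact binomial interval 13.6% to 23.9%), 211 of 560 intermediate cells (37.7%) and 240 of 406 naive-poor cells (59.1%, 54.2% to 63.9%). At 1000 UMIs the median number of detected genes was 744.5 in naive-rich and 550.5 in naive-poor cells. Each main result is therefore given for all barcodes and without the mitochondrial-rich ones, where 123 pairs remained from 191 naive-rich and 166 naive-poor cells. The limit of 20% was chosen after the values were seen. Mitochondrial UMIs are part of the total against which the rule counts naive UMIs, so this share is not independent of the choice.

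**Figure D1:**
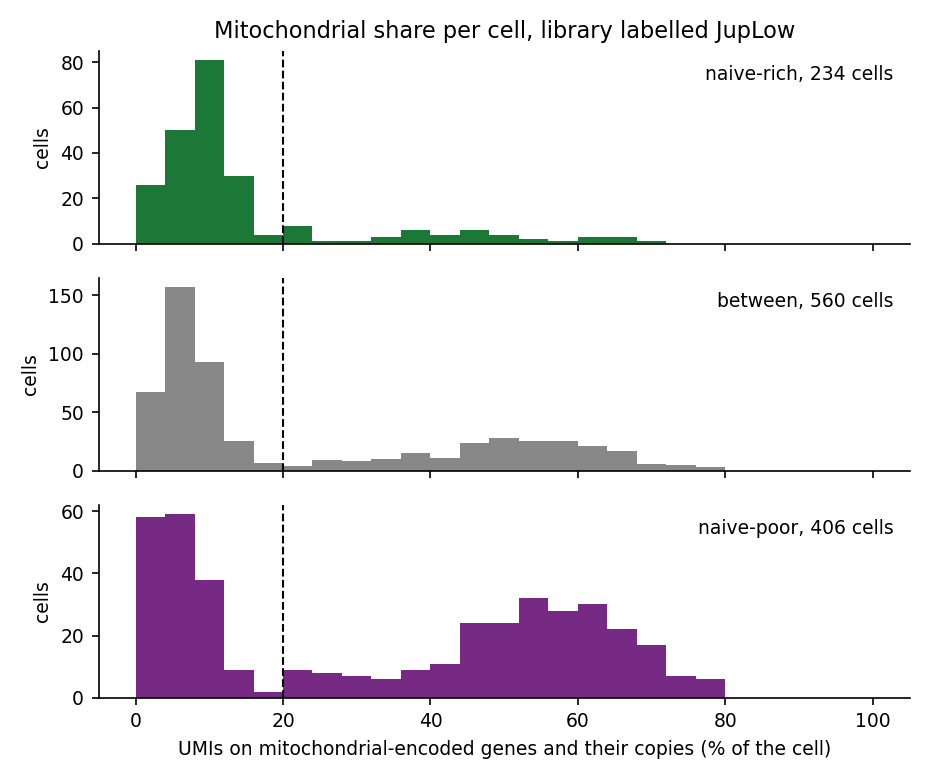
Number of cells (y axis, a separate scale for each panel) by the percentage of a cell's UMIs that fell on mitochondrial-encoded genes and their nuclear copies (x axis), for naive-rich, intermediate and naive-poor cells of the library labelled JupLow. The dashed line marks 20%, above which lay 43 of 234 naive-rich, 211 of 560 intermediate and 240 of 406 naive-poor cells.

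Jup had 21 UMIs in naive-rich and 22 in naive-poor cells, 38.0 against 41.6 CPM, and a log2 ratio of -0.13 (-1.07 to 0.80). Without mitochondrial-rich barcodes it had 9 against 19 UMIs and -1.04 (-2.37 to 0.17). With all barcodes a difference of 1.5-fold either way was therefore not excluded, and without mitochondrial-rich ones 1.5-fold lower in naive-rich cells was not. Over all kept cells Jup was at 37.9 CPM, and in the matched naive-rich cells of the other 4 libraries it was at 31.2 to 62.0 CPM from 1 to 14 UMIs. These counts do not set the plakoglobin lines apart, and whether they include the transgene is not given in the sources used here.

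Marker genes of other cell types were summed over all 234 naive-rich and 406 naive-poor cells, without matching. The 5 contractile or smooth-muscle markers (Acta2, Tagln, Cnn1, Myl9, Actg2) summed to 310 CPM in naive-rich and 1521 CPM in naive-poor cells, and the 3 simple-epithelium markers (Krt8, Krt18, Krt19) to 145 and 956 CPM. Primitive endoderm markers summed to 29.4 and 145 CPM, with Gata4 and Sox17 at 0 in both groups, and 82.0% of naive-poor cells had none of them. Mesendoderm markers summed to 0 and 8.69 CPM, fibroblast or feeder markers to 6.92 and 37.2 CPM with Lum at 0 in both, and 2-cell-like markers to 3.46 and 2.48 CPM. Trophoblast markers summed to 3.46 and 8.69 CPM with Elf5 at 0 in both. Neural markers went the other way, at 147 and 48.4 CPM with Sox1 at 0 in both, mostly from Tubb3, a neuronal tubulin (73 against 22 UMIs in matched cells, a log2 ratio of 1.67, and 39 against 22 and 0.86 without mitochondrial-rich barcodes). Of the formative or primed markers, Fgf5 was at 0 in naive-rich cells, and their sum was 923 CPM there and 802 CPM in naive-poor cells. Without mitochondrial-rich barcodes this direction turned, with sums of 959 CPM in naive-rich and 1071 CPM in naive-poor cells. The label naive-poor says only what the rule says, and no name of another cell type is given to these cells. Contractile and keratin markers were concentrated in some cells. Of the naive-poor cells 79 (19.5%) had 3 or more UMIs of these markers per 1000, 13 of them mitochondrial-rich. So did 11 of the naive-rich cells (4.70%) and 99 of the 560 intermediate cells (17.7%), a share near that of the naive-poor. Of the naive-poor cells 100 were neither mitochondrial-rich nor marker-rich.

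Over all genes, naive-rich cells had more of the pluripotency, polycomb and DNA replication genes. The medians of these lists were smaller with marker-rich barcodes left out as well as mitochondrial-rich ones, as given below. Naive-poor cells had more of many contractile and actin cytoskeleton genes and of the keratins Krt8 and Krt18. Of 1730 genes at 100 CPM or more over all kept cells and outside the rule, 606 (35.0%) were 1.5-fold or more higher in naive-rich cells and 138 (7.98%) were 1.5-fold or more lower. The median log2 ratio of naive-rich to naive-poor CPM over these genes was 0.41, and a ratio near that value is no more than the shift shared by all genes. Without mitochondrial-rich barcodes the median was -0.01, and of 2018 genes 251 (12.4%) were higher and 243 (12.0%) lower. The higher genes were 81.5% of all genes past 1.5-fold with all barcodes, 71.8% with mitochondrial-encoded and ribosomal protein genes taken out of the totals, 52.5% with mitochondrial genes and copies taken out of every count, and 50.8% without mitochondrial-rich barcodes. The 1200 cells came to 2878334 UMIs, against 112 to 2889 cells and 236195 to 8284254 UMIs in the other libraries, and no barcode was shared between libraries.

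Tdh, which encodes the threonine dehydrogenase that mouse ES cells use to break down threonine, had the largest ratio of all tested genes with all barcodes. Its 506 UMIs gave 915 CPM (exact Poisson limits 837 and 998) in naive-rich cells, and its 66 UMIs gave 125 CPM (96.5 to 159) in naive-poor cells, a log2 ratio of 2.88 (2.5 to 3.27) or 7.34-fold. The intervals lay far apart, and without mitochondrial-rich barcodes the ratio was 2.95 (2.46 to 3.47). Tdh lies on chromosome 14 from 63492347 to 63509092 (GRCm38, minus strand) and overlaps Gm17232 on the other strand, so without a stated strand setting their reads cannot be told apart. Over all cells, without matching, Tdh was at 139 CPM (114 to 167) in naive-poor cells and at 199 CPM (177 to 223) in cells between the limits, and barcodes under 500 UMIs, which can hold free RNA as well as shallow cells, had 288 CPM.

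Dnmt3l, a cofactor of the de novo DNA methyltransferases without enzyme activity of its own, had 320 UMIs in naive-rich and 61 in naive-poor cells, 579 against 115 CPM, and a log2 ratio of 2.33 (1.93 to 2.75). It lies on chromosome 10 from 78041947 to 78063622 and overlaps Aire on the other strand. Slc29a1, an equilibrative nucleoside transporter, had 169 against 23 UMIs and a ratio of 2.81 (2.18 to 3.51). Eed, a core subunit of the polycomb repressive complex that methylates histone H3, had 163 against 35 UMIs (2.16, 1.62 to 2.73), and Rcor2, a corepressor partner of the demethylase LSD1, had 184 against 37 (2.25, 1.73 to 2.80). All 4 were above 2 on the log2 scale with and without mitochondrial-rich barcodes, where their ratios were 2.12, 2.70, 2.05 and 2.07.

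The other genes among the 10 largest ratios were Hmces, which shields abasic sites in DNA (132 against 23 UMIs, log2 ratio 2.46), the mitochondrial superoxide dismutase Sod2 (118 against 23, 2.30), the secreted phospholipase Pla2g1b (110 against 23, 2.19), the RNA-binding protein gene Rbmxl2 (269 against 57, 2.18) and the ubiquitin ligase adaptor Klhl13 on the X chromosome (241 against 53, 2.12). Without mitochondrial-rich barcodes Rbmxl2 dropped to 1.36 and Pla2g1b to 1.65, while Klhl13 stood at 2.99. Rbmxl2 has no introns and close relatives elsewhere in the genome, and how the authors counted reads that match several places is not given in the sources used here.

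At the other end of the range, Serpinh1, the chaperone of collagen folding, had 6 UMIs in naive-rich and 66 in naive-poor cells, a log2 ratio of -3.52 (-5.02 to -2.32) or 11.5-fold lower. The keratins Krt8 and Krt18, which pair to form the filaments of simple epithelia, had 49 against 328 UMIs (-2.81, -3.27 to -2.37) and 31 against 176 UMIs (-2.57, -3.17 to -2.01). Of 3 tested keratin and desmosome genes only these 2 were lower (7.98% of all genes were), and without mitochondrial-rich barcodes 2 of 4 (12.0% of all). In CPM Krt8 went from 620 in naive-poor to 88.6 in naive-rich cells and Krt18 from 333 to 56.1. They are neighbours on chromosome 15 (101996698 to 102004482 and 102028180 to 102032027), and both have processed pseudogenes. Barcodes under 500 UMIs held Krt8 at 520 CPM and Krt18 at 529 CPM, above the level in naive-rich cells for both and, for Krt18, also above that in naive-poor cells.

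The remaining 7 of the 10 smallest ratios belonged to the membrane-binding annexin Anxa3 (10 against 95 UMIs, -3.31), the secreted matrix glycoprotein Thbs1 (16 against 139, -3.18), the large scaffold protein Ahnak (27 against 228, -3.14), the actin-severing protein gelsolin, Gsn (9 against 75, -3.12), the actin cross-linker Flnc (11 against 87, -3.05), caldesmon, Cald1 (25 against 147, -2.62) and the matricellular protein Ccn1 (13 against 65, -2.39). Without mitochondrial-rich barcodes the 10 ratios ran from -4.13 for Gsn to -1.82 for Ccn1. The 20 genes of both ends kept their sign and stayed past 1.5-fold in all 280 values over 14 other settings, among them one that left out the cell with most UMIs of the gene. These genes were picked as the extremes of this library and the settings share many of its cells, so the count is a description. Slc29a1, Hmces and Rcor2 were at 84.3, 76.9 and 91.0 CPM in intermediate cells and lower in matched naive-poor cells. They passed the floor of 100 CPM through the naive-rich cells. With marker-rich barcodes also left out, which are chosen by Krt8 and Krt18 among others, Krt18 stood at -1.05 and Thbs1 at -1.56.

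**Figure D2:**
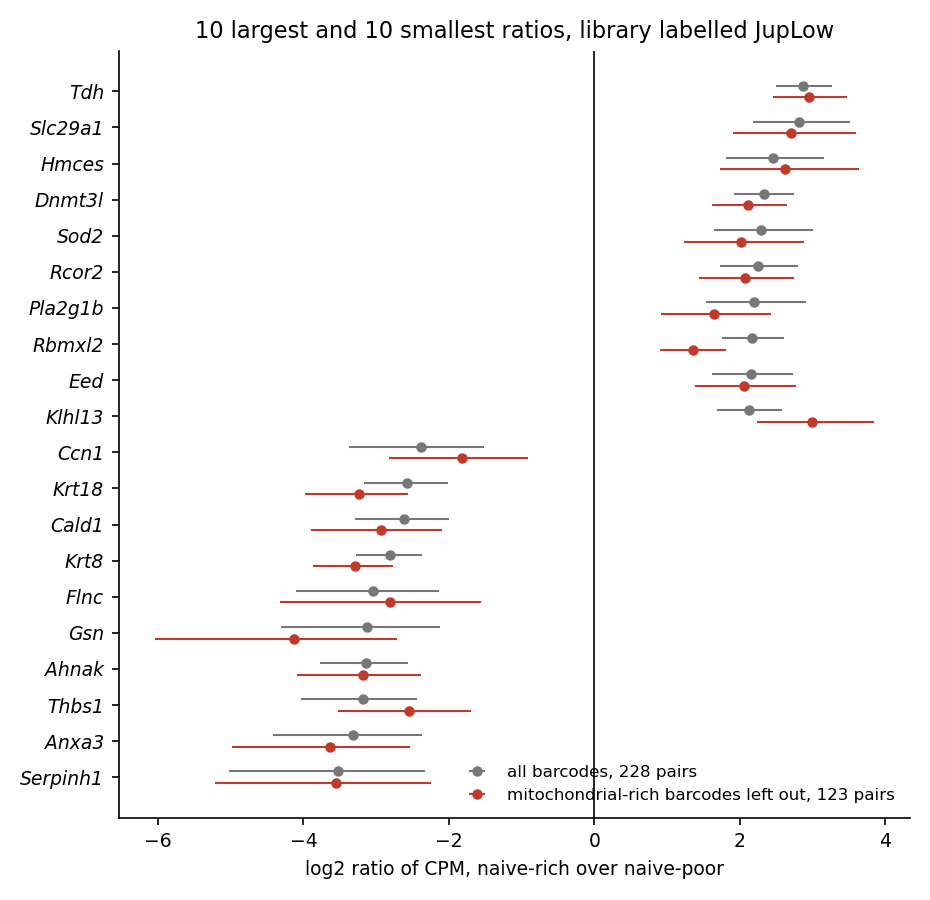
Log2 ratio of CPM in naive-rich over naive-poor cells (x axis) for the 10 largest and 10 smallest ratios of the library labelled JupLow, with exact 95% counting intervals as bars, for all barcodes (grey, 228 pairs) and without mitochondrial-rich barcodes (red, 123 pairs). Tdh is highest at 2.88 and Serpinh1 lowest at -3.52, and all 20 genes lie on the same side of 0 in both.

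The general pluripotency genes, which ES cells share across states, were higher in naive-rich cells as a list, with and without mitochondrial-rich barcodes. Of 13 tested members 11 were 1.5-fold or more higher (35.0% of all genes were) and 0 lower, with a median log2 ratio of 0.97 beside 0.41 for all tested genes. Without mitochondrial-rich barcodes 9 of 13 were higher (12.4% of all) and the median was 0.74 beside -0.01. Leaving out the marker-rich barcodes too gave 3 of 13 and a median of 0.34 beside -0.01, where 10.9% of all genes were higher and 9.86% lower. Trim28, the corepressor of retroelements, had 871 against 488 UMIs (0.77, and 0.77 without mitochondrial-rich barcodes).

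Pou5f1 (chromosome 17, 35506018 to 35510772) had 336 UMIs in naive-rich and 150 in naive-poor cells, 608 against 283 CPM, and a log2 ratio of 1.10 (0.82 to 1.39). Barcodes under 500 UMIs had 420 CPM, above the naive-poor level, and the share of free RNA in a kept cell was not estimated. Without mitochondrial-rich barcodes its levels were 688 and 499 CPM and its ratio was 0.46 (0.14 to 0.78), from 193 and 144 UMIs, and with marker-rich barcodes also left out the ratio was 0.01. Sox2 (chromosome 3, 34650405 to 34652461) had 195 against 82 UMIs, 353 against 155 CPM, a ratio of 1.19 (0.81 to 1.58), and 1.61 (1.02 to 2.23) without mitochondrial-rich barcodes. Barcodes under 500 UMIs had 364 CPM, above both groups. Sox2 lies inside Sox2ot on the same strand, so reads of both may be mixed. Without mitochondrial-rich barcodes both intervals lay above 0, and Sox2 had the larger ratio.

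Of 12 tested genes in a list of other naive-associated genes, 8 were higher and 2 lower, with a median of 1.08, beside those shares of all genes, and without mitochondrial-rich barcodes 10 of 14 were higher and 2 lower, with a median of 1.32. Mkrn1, a ubiquitin ligase, had 650 against 219 UMIs (1.51; 0.94 without mitochondrial-rich barcodes). Jarid2, which helps target the polycomb complex, had 513 against 163 (1.59; 1.78), and Dppa5a, a small RNA-binding protein of pluripotent cells, 352 against 170 (0.99; 0.92). The cell adhesion gene Cdh1 (E-cadherin), which the list also holds, went the other way with 145 against 286 UMIs (-1.04; -0.66). This list and the other gene lists were drawn up with earlier results of these data known, so their directions are a description.

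The list of DNA methylation genes had 3 of 5 tested members higher and 0 lower, with a median of 0.60, beside 35.0% of all genes higher and a median of 0.41, and 3 of 6 with 0.52 without mitochondrial-rich barcodes, beside 12.4% and -0.01. With so few members the count with all barcodes is near the background. The methyltransferase Dnmt3b had 417 against 273 UMIs and a log2 ratio of 0.55, close to the shift of all genes, and -0.09 without mitochondrial-rich barcodes. Tet1, which oxidises 5-methylcytosine, had 246 against 134 UMIs and 0.81, and 1.62 without them. Of the polycomb genes 4 of 5 tested were higher with a median of 0.95, and 5 of 7 with a median of 0.93 without mitochondrial-rich barcodes, beside the same shares of all genes. With marker-rich barcodes also left out, 3 of 7 were higher (10.9% of all) with a median of 0.53. Suz12 and Mtf2, both parts of that complex, had ratios of 0.62 and 0.95, and 0.69 and 0.93 without mitochondrial-rich barcodes.

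Formative and primed genes did not all go one way with all barcodes. Of 3 tested genes 2 were lower, where 7.98% of all genes were, and 0 higher, with a median of -0.98. Without mitochondrial-rich barcodes 2 of 4 were lower (12.0% of all) and 3 of 4 below 0, with a median of -0.72 beside -0.01. With marker-rich barcodes also left out 1 of 3 was lower (9.86% of all) and 3 of 3 below 0, with a median of -0.47. Pou3f1, the POU factor of the formative epiblast, had 49 against 129 UMIs, 88.6 against 244 CPM, and a log2 ratio of -1.46 (-1.97 to -0.97), and -2.09 (-2.80 to -1.44) without mitochondrial-rich barcodes. Sox11 had 43 against 81 UMIs (-0.98; -1.35). Otx2, below 100 CPM over all cells, stood the other way at 44 against 14 UMIs and 1.59, and at 0.20 (-0.82 to 1.23) without mitochondrial-rich barcodes.

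The contractile and actin cytoskeleton genes were the largest group on the naive-poor side. This list too was drawn up with earlier results of these data known, so its counts are a description. Of 21 tested genes 13 were 1.5-fold or more lower in naive-rich cells (7.98% of all genes were) and 0 higher, with a median log2 ratio of -1.05 beside 0.41 for all tested genes. Without mitochondrial-rich barcodes 19 of 21 were lower, where 12.0% of all genes were, and the median was -1.59 beside -0.01, so most of its move was the shift shared by all genes. With marker-rich barcodes also left out, 10 of 16 were lower (9.86% of all) and the median was -0.67. The most abundant members differed little with all barcodes: beta-actin, Actb, had 1917 against 1723 UMIs (0.09), gamma-actin, Actg1, 1054 against 1027 (-0.03), and the myosin light chain gene Myl12a 422 against 488 (-0.27). Without mitochondrial-rich barcodes these 3 ratios were -0.72, -0.90 and -1.02, in part by the same shift.

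Some genes of the contractile apparatus itself were further apart, but the myosin light chain gene Myl9 had 21 against 25 UMIs (-0.31, -1.22 to 0.58). Without mitochondrial-rich barcodes Myl9 stood at -0.96 (-2.22 to 0.20). Acta2, the smooth-muscle actin, had 77 UMIs in naive-rich and 362 in naive-poor cells, 139 against 684 CPM, and a log2 ratio of -2.30 (-2.67 to -1.94), and -3.02 (-3.47 to -2.59) without mitochondrial-rich barcodes. A single naive-poor cell held 165 of the 362 UMIs. Without that cell 77 stood against 197 UMIs and the ratio was -1.42 (-1.82 to -1.04), or -2.30 (-2.77 to -1.86) without mitochondrial-rich barcodes. Acta2 was at 839 CPM in barcodes under 500 UMIs, above both groups, and it lies on chromosome 19 from 34241090 to 34255590. Tagln (transgelin, SM22) had 70 against 339 UMIs (-2.34; -2.77) and was at 869 CPM in barcodes under 500 UMIs, above both groups, and tropomyosin 1, Tpm1, had 117 against 351 (-1.65; -2.32). Tagln overlaps Pcsk7 on the other strand, whose reads cannot be told apart from its own.

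Many contractile genes carry binding sites of serum response factor, called CArG boxes, near their start, and genes under YAP carry sites of TEAD factors with the core GGAATG. The 250 bases upstream of the RefSeq start site (GRCm38.p6) were searched on both strands for both motifs. A CArG box was found in 439 of 27025 genes with a promoter entry (1.62%), and in 4 of the 17 tested contractile genes with an entry: Actg1, Cnn2, Myl6 and Vcl. GGAATG was found in 14.4% of all promoters and in 7 of those 17, in 3 of 3 tested YAP targets with an entry (Ajuba, whose ratio was 0.53, Amotl2 and Ccn1), and also in 2 of 9 entries of the 10 largest ratios (22.2%), Slc29a1 and Dnmt3l. Vcl (vinculin) and Ccn1, chosen after their values were seen, show what the matches look like, with the CArG box of Vcl and the TEAD core of Ccn1, here on the opposite strand, in capitals, each 5′ to 3′ in the direction of the gene. The sequence of Vcl is chr14:20929148-20929397 on the plus strand, and its box begins 227 bases before the start site. That of Ccn1 is chr3:145649986-145650235 on the minus strand, with the core 103 bases before the start site.
Vcl: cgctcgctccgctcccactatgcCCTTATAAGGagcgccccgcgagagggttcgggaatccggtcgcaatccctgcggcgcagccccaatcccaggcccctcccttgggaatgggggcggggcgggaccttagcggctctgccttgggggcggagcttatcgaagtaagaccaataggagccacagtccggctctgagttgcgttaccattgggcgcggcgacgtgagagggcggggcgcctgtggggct
Ccn1: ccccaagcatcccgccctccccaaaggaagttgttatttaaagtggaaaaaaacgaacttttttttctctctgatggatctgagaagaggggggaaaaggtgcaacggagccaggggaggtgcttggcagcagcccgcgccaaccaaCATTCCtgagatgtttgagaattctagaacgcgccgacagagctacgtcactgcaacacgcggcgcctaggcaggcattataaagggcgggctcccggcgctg
Vcl had 56 against 107 UMIs and a log2 ratio of -1.0 (-1.60 without mitochondrial-rich barcodes), and Ccn1 -2.39 (-1.82). Actg1 and Myl6, with a CArG box, had -0.03 and -0.47 with all barcodes, and Actg1 was lower without mitochondrial-rich ones, as given above. Whether the box and the ratio go together was not tested. A match is a run of letters and does not show binding. Of sites read by naive factors, TCAAGGTCA (ESRRB) was found in 0.422% of all promoters, ATGCAAAT (the octamer) in 1.81% and GGGTGTGG (KLF) in 3.68%. Among the 9 entries of the 10 largest ratios, GGGTGTGG matched in Slc29a1 and Hmces, and the other two motifs matched in 0. Among the 8 entries of the 10 smallest ratios, GGGTGTGG matched in 1, Gsn, and the CArG box in 0.

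Of the YAP and TEAD targets, which respond to cell spreading, 4 of 5 tested were lower and 0 higher, where 7.98% of all genes were lower, with a median log2 ratio of -0.87. Tead1 itself had 105 against 155 UMIs (-0.63), and -0.08 without mitochondrial-rich barcodes. Ajuba had 86 against 57 (0.53), and 0.11 without them. Amotl2 had 36 against 63 (-0.87; -1.80). Without mitochondrial-rich barcodes 4 of 6 were lower (12.0% of all) and the median was -1.72 beside -0.01, with Ajuba and Tead1 near 0. With marker-rich barcodes also left out 3 were tested, of which 1 was lower and 1 higher (9.86% and 10.9% of all genes) with a median of -0.37.

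Plakoglobin joins cadherins and desmosomal proteins to the cytoskeleton, and other genes of these junctions were compared as a list. Of 6 tested cadherin and catenin genes 4 were lower (7.98% of all genes were) with a median of -0.73 beside 0.41, and 5 of 6 (12.0% of all) with a median of -0.69 beside -0.01 without mitochondrial-rich barcodes. Beta-catenin, Ctnnb1, was at the level of all genes with 339 against 244 UMIs (0.41; 0.01), while alpha-catenin, Ctnna1, had 175 against 302 (-0.85; -0.72).

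DNA replication genes were higher in naive-rich cells as a list, except where marker-rich barcodes were also left out. Of 16 tested S phase genes 12 were higher (35.0% of all genes were) and 0 lower, with a median log2 ratio of 0.85 beside 0.41 for all genes, and without mitochondrial-rich barcodes 8 of 16 (12.4% of all) with 0.63 beside -0.01. The helicase subunits Mcm6, Mcm2 and Mcm7 had 417 against 164 UMIs (1.28), 322 against 168 (0.88) and 275 against 148 (0.83). Without mitochondrial-rich barcodes their ratios were 0.99, 0.68 and 0.58. Of 13 genes of G2 and M phase 8 were higher with a median of 0.64, and 4 of 13 with 0.41 without those barcodes, beside the same shares and medians of all genes. With marker-rich barcodes also left out, 3 of 16 S phase genes were higher with a median of 0.36, a share near the 10.9% of all genes.

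Of 4 tested p53 target genes 1 was higher and 2 were lower, where 35.0% of all genes were higher and 7.98% lower. Ccng1 (cyclin G1) had 83 against 188 UMIs (-1.24; -1.10 without mitochondrial-rich barcodes), and Mdm2, the ubiquitin ligase of p53, 89 against 117 (-0.46; -0.93). The apoptosis gene Bax went the other way with 159 against 65 (1.23; 0.52). Without mitochondrial-rich barcodes 5 of 6 were lower with a median of -1.18, where 12.0% of all genes were lower. The list of 13 tested mitochondrial-encoded genes had 11 lower and 0 higher, with a median of -1.30. The ribosomal RNA genes mt-Rnr1 (2103 against 1458 UMIs, 0.47) and mt-Rnr2 (2690 against 2135, 0.27) stood apart from mt-Nd2 (2560 against 7725, -1.66) and mt-Cytb (6124 against 16782, -1.52). Once mitochondrial-rich barcodes were left out, 3 of 13 were higher and 0 lower with a median of 0.35. Those barcodes were chosen by these genes, so the sign there says nothing independent of the choice. Cytoplasmic ribosomal protein genes had a median of 0.30, below that of all genes, and -0.31 without mitochondrial-rich barcodes.

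**Figure D3:**
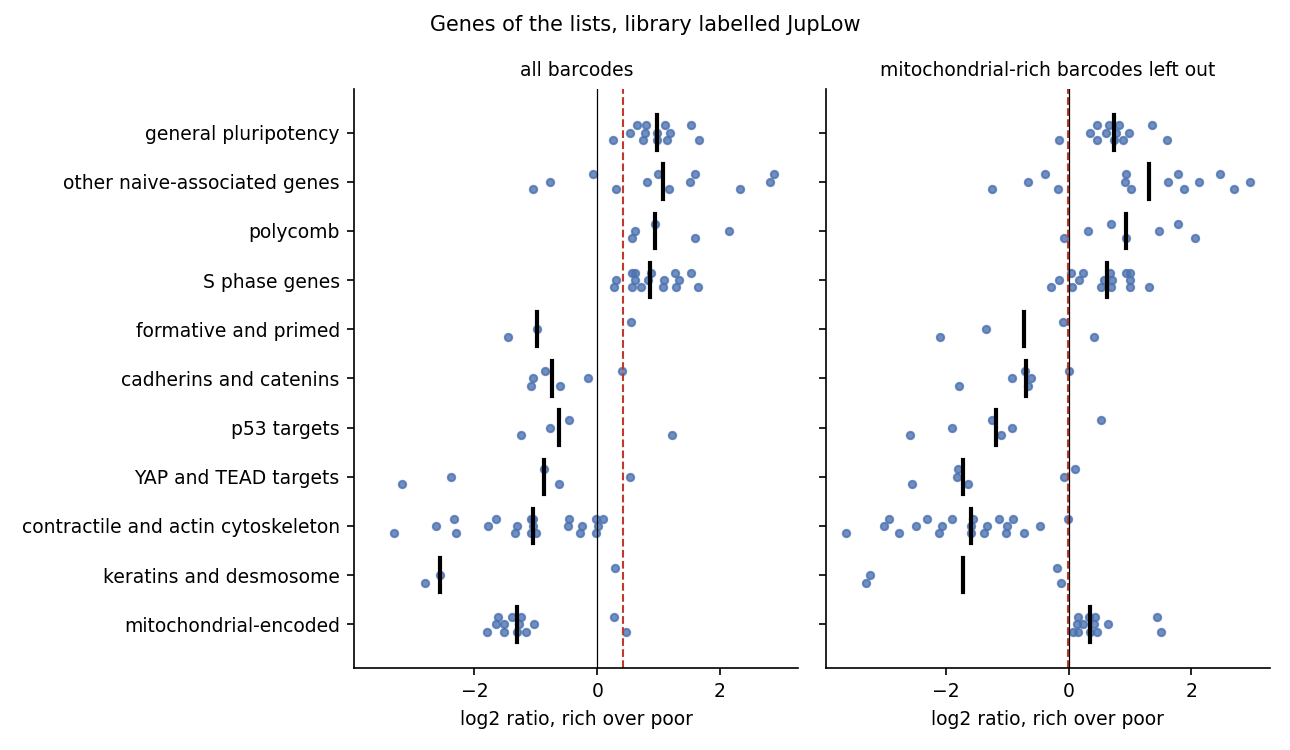
Log2 ratio of naive-rich over naive-poor CPM for each tested gene (points) of 11 gene lists in the library labelled JupLow, with the median of the list as a black bar and the median of all tested genes as a dashed red line, for all barcodes (left, 0.41) and without mitochondrial-rich barcodes (right, -0.01). Contractile genes have a median of -1.05 on the left and -1.59 on the right, and the mitochondrial-encoded genes move from -1.30 to 0.35.

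The cells between the limits show whether the levels followed the naive score in steps. Over all 406, 560 and 234 cells, without matching, the summed level of the contractile list was 13140 CPM in naive-poor, 15422 in intermediate and 9441 in naive-rich cells, and that of keratin and desmosome genes 1325, 1499 and 401 CPM. Intermediate cells therefore stood at or above the naive-poor level and the naive-rich cells apart. Without mitochondrial-rich barcodes the contractile sums were 23758, 20081 and 10289 CPM, in order. Krt8 went from 1059 to 949 and 86.3 CPM and Acta2, with the cell of 165 UMIs included, from 1550 to 764 and 127 CPM in the same cells. Pou5f1 was at 494, 498 and 693 CPM there, with the intervals of the lower 2 groups overlapping (422 to 575 and 455 to 543). Tdh had 168, 229 and 1040 CPM, Dnmt3l 159, 315 and 617 CPM, and Sox2 118, 164 and 345 CPM.

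To ask whether the naive genes vary together beyond the rule, each of the 15 was left out in turn, the cells were chosen again by the other 14, and the gene left out was compared between the matched groups. In the library labelled JupLow 14 genes had at least 10 UMIs over both groups. Of these, 12 were 1.5-fold or more higher in the naive-rich cells chosen without them and 0 lower, with a median log2 ratio of 2.98 over 169 to 230 pairs. Of all genes at 100 CPM or more 35.0% were higher, a filter that most of the 14 would not pass. Some reached 10 UMIs only through the naive-rich group, such as Tbx3 (22 against 1) and Tcl1 (16 against 2), so the count is a description. Zfp42 had 355 against 23 UMIs (3.94, 3.33 to 4.61), Klf2 286 against 27 (3.38, 2.80 to 4.0), Esrrb 133 against 16 (3.02, 2.26 to 3.87), Nanog 129 against 22 (2.52, 1.86 to 3.24) and Klf4 87 against 18 (2.22, 1.48 to 3.04). Klf5 had 64 UMIs in each group (0.00, -0.52 to 0.52) and Gbx2 7 against 9 (-0.42, -2.08 to 1.17), so these 2 members were not higher where the others were. Fgf4, an autocrine ligand that drives ES cells out of the naive state, had 30 against 15 (0.95, 0.01 to 1.95).

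Without mitochondrial-rich barcodes 12 of 14 were again higher and 1 lower, with a median of 2.26. Of all genes at 100 CPM or more 12.4% were higher there, with the same difference of filters. Nr5a2 had 25 against 0 UMIs there, Zfp42 265 against 24 (3.41) and Nanog 88 against 20 (2.06). Klf5 stood at -0.28 (-0.83 to 0.27) and Gbx2 at -1.28 (-3.41 to 0.51), the latter from 4 and 10 UMIs.

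In the other libraries, with all barcodes, 7 of 10 counted genes were higher in the one labelled JupHigh, 10 of 11 in the wild-type serum/LIF plastic culture, 2 of 2 in gel and 11 of 13 in 2i/LIF. Of the genes tested in the library labelled JupLow that had at least 10 UMIs there, 75.8%, 28.7%, 35.4% and 51.3% were 1.5-fold or more higher, so the count in JupHigh was near the background. The medians were 0.93, 2.31, 2.51 and 1.25, and 0 genes were 1.5-fold lower in any of them. Over those genes at large the median ratios were 1.06, 0.37, 0.27 and 0.61, so with all barcodes the naive genes of the library labelled JupHigh had a median below that of all genes. Without mitochondrial-rich barcodes 3 of 4, 9 of 10, 2 of 2 and 10 of 13 were higher, beside 28.1%, 12.1%, 18.8% and 43.9% of all genes. The medians there were 0.88, 2.04, 1.66 and 1.05 beside 0.04, -0.03, -0.10 and 0.42, and 1 gene was lower in 2i/LIF, Dppa3 (7 against 16 UMIs, -1.19, interval -2.71 to 0.17).

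**Figure D4:**
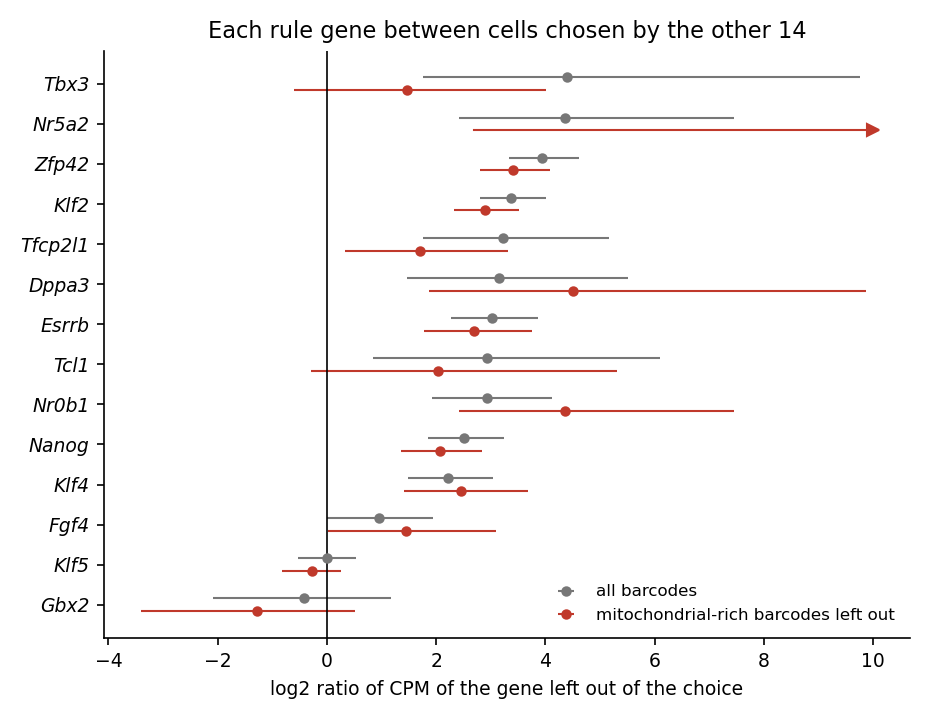
Log2 ratio (x axis) of the CPM of each naive gene between naive-rich and naive-poor cells chosen by the other 14 genes, library labelled JupLow, with exact 95% counting intervals, for all barcodes (grey) and without mitochondrial-rich barcodes (red; the arrow marks Nr5a2, with 0 UMIs in naive-poor cells). The 14 genes with at least 10 UMIs are shown, from Tbx3 at 4.40 (22 against 1 UMIs, interval 1.77 to 9.76) to Gbx2 at -0.42 with all barcodes.

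The same rule in the other 4 libraries gave 1638 naive-rich and 106 naive-poor cells in the one labelled JupHigh, 113 and 237 in the wild-type serum/LIF plastic culture, 18 and 46 in gel, and 2155 and 176 in 2i/LIF. Matching left 106, 110, 15 and 176 pairs. Mitochondrial-rich barcodes were more frequent among naive-poor cells in each: 86.8% against 33.3%, 41.8% against 12.4%, 52.2% against 16.7% and 21.6% against 8.58%, in the same order. These libraries took no part in the choice of the cells labelled JupLow, and their naive-rich and naive-poor sums were tested with edgeR's quasi-likelihood test with the library as a block. A gene could pass from counts in some of the libraries.

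Of 4376 genes tested with edgeR, 2 (0.0457%) were higher and 31 (0.708%) lower in naive-rich cells at a Benjamini-Hochberg adjusted p under 0.05. The higher genes were Set, a histone chaperone (log2 ratio 1.21, edgeR adjusted p = 0.00477), and Adamts3, a procollagen protease (1.20, edgeR adjusted p = 0.0116). Set was at 1524, 1476, 1546 and 1010 CPM in naive-rich and 294, 820, 292 and 234 CPM in naive-poor cells of the libraries labelled JupHigh, wild type in serum/LIF, gel and 2i/LIF, higher in 4 of 4, and at 1676 against 618 CPM in the one labelled JupLow. Without gel its adjusted p was 0.24 and that of Adamts3 0.16, and without JupHigh that of Adamts3 was 0.097. Without mitochondrial-rich barcodes 0 genes were higher in edgeR (85 at an unadjusted p under 0.05; DESeq2 was not run there), and the adjusted p of Set was 0.18.

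The lower genes were mostly mitochondrial: 14 of 15 listed mitochondrial-encoded genes, led by mt-Nd2 (-2.08, edgeR adjusted p = 3.79e-10), and their nuclear copies. The rule counts naive UMIs among all UMIs of a barcode, mitochondrial ones included. The direction of the mitochondrial genes is therefore not independent of the choice of cells. The others included Acta2, Krt18, Lgals1, Col19a1, Snhg14 and Zscan4a. Without mitochondrial-rich barcodes Col19a1 went from -1.96 to -0.21 (edgeR adjusted p = 0.909) and Snhg14 from -1.60 to -0.54 (edgeR adjusted p = 0.781). Zscan4a had 2 against 36 UMIs in the library labelled JupHigh, 2 against 0 in gel and 0 in both groups of the other two, so its call rests on JupHigh. Acta2 had 0 against 14 UMIs in the library labelled JupHigh, 23 against 81 in wild-type serum/LIF cells, and 0 in both groups of gel and 2i/LIF (fitted log2 ratio -2.75, edgeR adjusted p = 5.02e-05). Krt18 had 0 against 8, 17 against 51, 0 against 5 and 0 against 0 UMIs in the same order (-2.58, edgeR adjusted p = 0.000686). Lgals1, the secreted lectin galectin-1, had 7 against 14, 40 against 63, 2 against 3 and 8 against 20 (-1.47, edgeR adjusted p = 0.0216), lower in 4 of 4. Its call was lost without JupHigh (0.454), without wild type in serum/LIF (0.212) and without 2i/LIF (0.0740), and its edgeR adjusted p ran from 1.96e-05 to 0.9998 over all settings. The lowest of these came with JupLow added. DESeq2 gave no adjusted p for Acta2 and Krt18, 0.0961 for Lgals1 and 0.559 for Krt8. The fitted ratios of Acta2 and Krt18 depend on edgeR's prior count, since naive-rich cells had 0 UMIs in some libraries. In the library labelled JupHigh the 14 Acta2 UMIs came from 2 cells.

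Without mitochondrial-rich barcodes, which left 14, 92, 13 and 138 pairs, 4 of 2632 genes (0.152%) were lower in edgeR and 0 higher. They were Acta2 (-2.94, edgeR adjusted p = 0.000208), Krt18 (-2.79, edgeR adjusted p = 0.000303), Krt8 (-1.86, edgeR adjusted p = 0.0216) and Lgals1 (-1.64, edgeR adjusted p = 0.0429). With all barcodes Krt8 had an adjusted p of 0.0702 (-1.57), from 2 against 12, 37 against 71, 1 against 4 and 3 against 0 UMIs. None of the mitochondrial-encoded genes, by which the barcodes were left out, passed here, and mt-Nd2 stood at -0.01. Left out in turn, JupHigh moved the adjusted p of Acta2 to 0.080 and of Krt18 to 0.061 with all barcodes. Without wild type in serum/LIF, neither Acta2 nor Krt18 passed the count filter. Over all settings in which each was tested, the edgeR adjusted p ran from 8.51e-13 to 0.0803 for Acta2, from 1.89e-11 to 0.387 for Krt18, from 8.51e-07 to 0.9998 for Set and from 3.13e-05 to 0.9998 for Adamts3. The lowest values of Acta2 and Krt18 came with JupLow added, and those of Set and Adamts3 with totals in place of TMM.

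Tdh, Dnmt3l, Pou5f1 and Serpinh1 did not pass in the other 4 libraries with TMM scaling. Tdh was higher in 4 of 4 libraries, at 1462 against 456, 609 against 166, 710 against 83.3 (17 against 2 UMIs) and 1121 against 640 CPM, with a fitted log2 ratio of 0.90 after normalization (edgeR adjusted p = 0.228). With totals in place of TMM, the scaling of the JupLow ratios, Tdh passed (1.65, edgeR adjusted p = 0.000318), as it did without 2i/LIF (1.16, edgeR adjusted p = 0.00157). Over all settings its edgeR adjusted p ran from 5.06e-06 to 0.9998. The lowest value came with JupLow added, the library in which Tdh was picked for its ratio, so it is not independent of that choice. Dnmt3l was at 301 against 150, 324 against 193, 292 against 41.7 (7 against 1 UMIs) and 31.0 against 17.7 CPM (7 against 4 UMIs; 0.36, edgeR adjusted p = 0.91). Pou5f1 was at 502 against 125, 695 against 335, 752 against 541 and 500 against 358 CPM (0.41, edgeR adjusted p = 0.85). Serpinh1 had 2 against 3, 26 against 28, 0 against 1 and 2 against 2 UMIs (-0.73, edgeR adjusted p = 0.85). Whether the JupLow ratios differ from these was not tested, since each condition is 1 library.

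**Figure D5:**
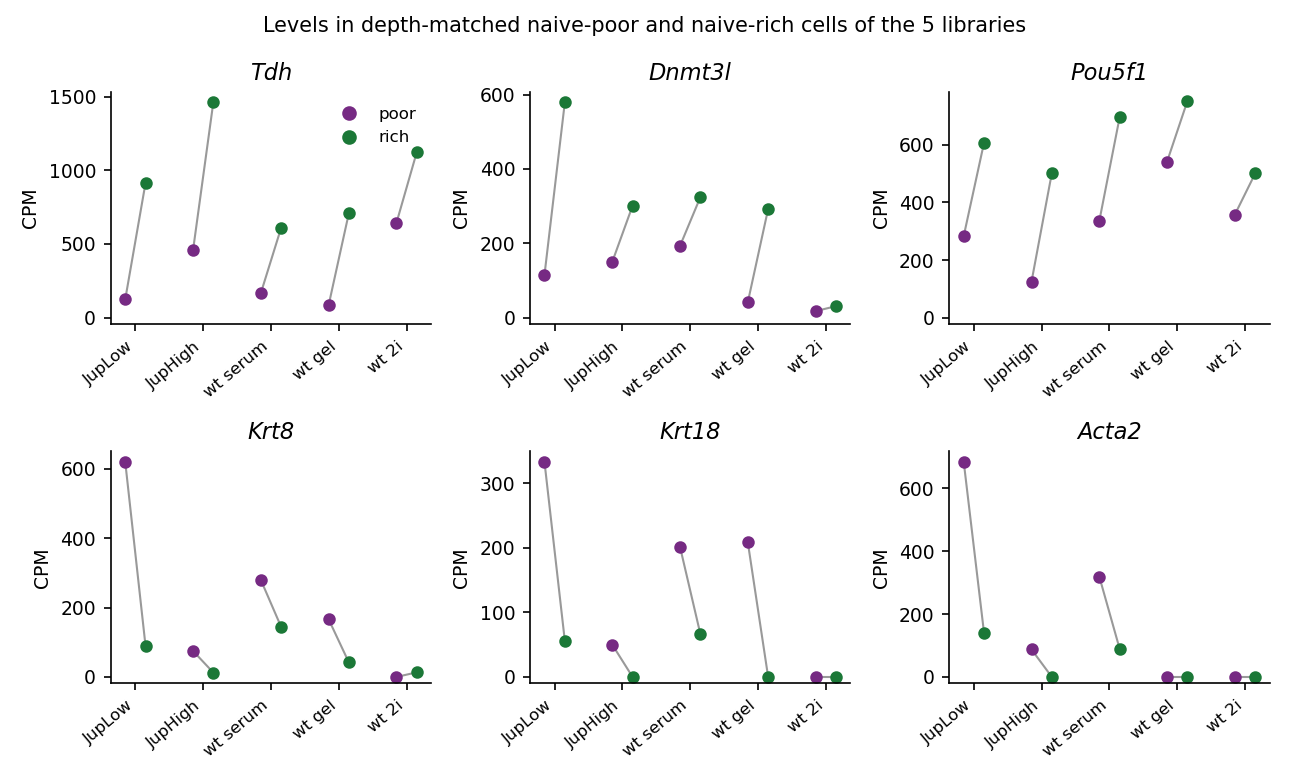
CPM (y axis, linear) of 6 genes in matched naive-poor (purple) and naive-rich (green) cells of the 5 libraries, 1 point for each group and library with no replicates, joined within a library. Tdh is higher in naive-rich cells of all 5, and Acta2 is at 0 in both groups of gel and 2i/LIF.

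Direction was compared gene by gene within each library, over genes with at least 10 UMIs. Of 583 genes 1.5-fold or more higher in the library labelled JupLow, 95.03% were above 0 in wild type in serum/LIF, where 77.7% of all 1662 genes were. Without mitochondrial-rich barcodes it was 79.7% of 241 genes beside 48.0% of all 1928, and for 231 lower genes 79.2% were below 0 beside 52.0% of all. In 2i/LIF, with all barcodes, 86.05% of 602 higher genes were above 0 beside 76.0% of all, and 37.1% of 97 lower genes were below 0 beside 24.0% of all. Without mitochondrial-rich barcodes 82.6% of 236 higher genes were above 0 beside 67.2% of all, and 31.3% of 176 lower genes were below 0 beside 32.8% of all. In gel, with all barcodes, 72.7% of higher genes were above 0 beside 69.0% of all, and in the library labelled JupHigh 98.8% beside 92.2%. Of the lower genes, with all barcodes, 83.5% were below 0 in wild type in serum/LIF beside 22.3% of all, 85.7% in gel beside 31.0%, and 58.4% in JupHigh beside 7.84%. Without mitochondrial-rich barcodes the shares of higher genes in gel and JupHigh were 62.0% beside 38.7% and 66.7% beside 59.9%, and those of lower genes 81.9% beside 61.3% and 61.2% beside 40.1%. These shares are a description with no test.

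Of the naive genes left out of the choice in turn, 11 of 15 passed the count filter in the other 4 libraries, and all 11 had a ratio above 0. With cells chosen by all 15 genes, 1935 of 4376 genes were above 0 and 0.0457% passed as higher. Those of the 15 that failed the filter were Tbx3 (34 against 15 UMIs), Gbx2 (15 against 1), Dppa3 (24 against 19) and Prdm14 (5 against 3). By edgeR 2 passed the adjusted threshold, Klf2 (1.42, edgeR adjusted p = 0.00475) and Zfp42 (1.21, edgeR adjusted p = 0.0254), and 4 had an unadjusted p under 0.05. Nanog had 336 against 127 UMIs over the 4 libraries (0.86, edgeR adjusted p = 0.369) and Esrrb 198 against 60 (1.10, edgeR adjusted p = 0.153). Without mitochondrial-rich barcodes 7 passed the filter, 7 were above 0, and Zfp42 passed (1.31, edgeR adjusted p = 0.0191). With cells chosen by all 15 genes, 1231 of 2632 genes were above 0 there and 0 passed as higher. The Klf2 value there was 1.32 (edgeR adjusted p = 0.47).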

How the data were processed

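The 5 single-cell tables hold whole UMI counts per gene and barcode, as deposited, without normalization. Per the submitters' processing notes the tools included FastQC, STAR, featureCounts, DESeq2 and Scanpy and the builds mm10 and GRCm38; which tool made which table, UMI collapsing, strand and barcode filters are not given in the sources used here. Unnamed columns, which hold 0.00509% to 0.499% of the UMIs in each table, and a cut-off last line of the gel table were left out. The members and the gene lists were chosen with earlier results of these data known.

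From the counts, CPM was computed from the sum over the cells of a group, with the 15 rule genes out of the totals. Pairs were matched 1:1 on UMIs, deepest cell first, within 10%. Intervals of ratios are exact conditional (Clopper-Pearson) and those of levels exact Poisson; both cover counting error only. No doublet caller was run; as an alternative, barcodes deeper than 3 times the median were dropped. Named genes were the 10 largest and 10 smallest ratios, the rule genes, Jup, Pou5f1, Sox2, list members at 50 CPM or more, and genes that edgeR called in the other libraries. Barcodes with 3 or more UMIs per 1000 of 8 contractile and epithelial markers were called marker-rich, a limit set after the data were seen. Nuclear copies of mitochondrial genes were found with blastn 2.17.0+ at 90% identity or more over more than 50% of the transcript.

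The sums of the other 4 libraries were tested with edgeR 4.0.16 (TMM, two-sided, R 4.3.3), checked on simulated data like the ratio step; their p-values measure the spread between libraries of different lines and media. DESeq2 1.42.0 was an alternative. Positions are from GENCODE on GRCm38 and promoters from RefSeq. The deposited counts of the wild-type serum/LIF culture list mt-Co3 and mt-Nd4 at 0, unlike the other tables; all ratios were formed within a library. One gene that edgeR called is not reported here.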

Additional observations from a re-analysis of the deposited data

How the results depend on the processing

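In the library labelled JupLow the number of genes past 1.5-fold was 2333 higher and 766 lower with a floor of 20 CPM, which tests more genes. It was 251 and 243 without mitochondrial-rich barcodes, 270 and 244 with mitochondrial genes out of every count, and 221 higher with marker-rich barcodes also left out; the cause was not tested. The median of mitochondrial-encoded genes, which choose those barcodes, went to 0.35 without mitochondrial-rich barcodes and to 0.19 with marker-rich ones also out. This change of sign is not independent of the choice. Among list members, leaving out 1 cell moved Acta2 from -2.30 to -1.42. The share of naive-poor cells was 53.3% after thinning to 1000 UMIs, 23.6% among cells of 2000 or more UMIs and 23.5% without mitochondrial-rich barcodes, where 27.1% were naive-rich.

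In the other 4 libraries the edgeR counts of higher and lower genes were 2 and 31. Higher genes numbered 179 with totals in place of TMM, which moved the median of all genes from -0.07 to 0.60, 8 without depth matching, 1 with a rich limit of 2.5, 0 without mitochondrial-rich barcodes, 61 with JupLow added and 0 without the library block, where 18 had an unadjusted p under 0.05. Lower genes numbered 50 without matching, 4 without mitochondrial-rich barcodes, 158 with JupLow added and 0 without the block, where 36 had an unadjusted p under 0.05. With each library left out in turn, 0 to 6 genes were higher and 22 to 43 lower. DESeq2 gave 2 and 26. Naive genes left out of the choice that passed went from 2 to 1 without mitochondrial-rich barcodes. Both groups of a library were paired by the library block. By replicate number, no paired analysis was possible because each single-cell condition is 1 library without such a number, and the bulk libraries, whose labels share numbers, entered no comparison. Depth limits low genes: Prdm14 had too few UMIs to compare, the interval of Jup with all barcodes spans 1.5-fold both ways, and the gel groups rest on 15 pairs.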
